A study of Homo sapiens with 9 samples.

Results

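RNA from HEK293 cells that had been given the L188Q form of surfactant protein C (SP-C, encoded by SFTPC) was compared with RNA from HEK293 cells given wild-type SP-C. HEK293 is an established line derived from human embryonic kidney that takes up plasmid DNA readily and is not a lung cell. The comparison used 6 of the 9 arrays of the study, taken by their titles: 3 labelled L188Q mutant (LQ) and 3 labelled wild-type control (WT). All groups shared the cell line and the transient transfection with an SP-C construct. The other 3 arrays held RNA from cells given SP-C without exon 4 (Ex4), and they entered the estimate of the spread and a direct test against LQ. Cells given no plasmid or an empty one were not analysed here, so a response shared by all SP-C forms, or by transfection itself, is not seen in LQ against WT. The labels call the groups triplicates without saying that the 3 arrays came from separate cultures, so the p-values measure the spread between arrays, which may be technical. The promoter of the plasmids, the time after transfection and the share of cells transfected are not stated in the labels.

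SP-C is made as a longer integral membrane proprotein in alveolar type II cells of the lung, and its lumenal C-terminal domain folds in the endoplasmic reticulum (ER) before the protein moves on to lamellar bodies. L188Q changes a leucine in that domain, the BRICHOS domain, and is a known cause of familial interstitial lung disease through a misfolded proprotein. Misfolded protein in the ER is held by chaperones such as HSPA5 (BiP), is drawn back to the cytosol for the proteasome by ER-associated degradation, and activates 3 sensors, ERN1 (IRE1), EIF2AK3 (PERK) and ATF6, whose transcription factors raise chaperone and degradation genes.

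Each array gave 54613 probe sets other than its controls, as MAS5 intensities, and 32768 of them passed a filter on low mean values. For each gene the brightest probe set on average stood for the gene, which gave 14018 genes. Changes are LQ minus WT on the scale of log2(intensity + 16), with the standard error (SE) of the limma fit, and a gene is called when its p, adjusted by Benjamini-Hochberg over the 14018 genes, is below 0.05. The arrays had been scaled to a common trimmed mean (1493 to 1495 on all 6), but their medians differed: 506 to 524 on the WT arrays and 304 to 372 on the LQ arrays, with no overlap. The 3′ to 5′ ratio of the GAPDH probe sets, which tells of RNA integrity, was 1.21 to 1.43 on the WT arrays and 1.06 to 1.09 on the LQ arrays, and its part in the results was not tested. The same ratio for ACTB overlapped, at 1.05 to 1.27 on the WT arrays and 1.15 to 1.23 on the LQ arrays. Across all tested probe sets the LQ arrays correlated with each other at r = 0.953 to 0.959 and the WT arrays at 0.884 to 0.922. WT replicate 1 stood nearer the LQ arrays (r = 0.896 to 0.915) than WT replicate 2 did (0.862 to 0.880). All 10 markers of HEK293 cells (among them VIM, NEFL, KRT8 and CDH2) lay above the array median on all 6 arrays. Of these, PAX2, a kidney transcription factor, was the 1 called gene and fell (-2.04). The markers of other cell types were mostly dim, and their summed intensity lay lower on the LQ arrays. Dim genes in general lay lower there: over the dimmest 2804 of the 14018 genes the median log2 change was -0.68. For fibroblasts the sum over 10 markers was 8037 to 8832 on the WT arrays and 4013 to 5115 on the LQ arrays, with COL1A1, a collagen chain, called lower (-0.96 ± 0.20) and 5 markers below the median on all 6 arrays. For blood cells the sum over 10 markers was 3874 to 4377 on the WT arrays and 2046 to 2624 on the LQ arrays, and for endothelial cells, over 8 markers, 3213 to 3846 and 1331 to 2303, with CLDN5 called lower. PTPRC and CDH5, which define blood and endothelial cells, lay below the median on all 6 arrays, and the part of these signals in the results was not tested. None of the 9 tested markers of alveolar type II cells other than SFTPC was called, among them SFTPB (-0.26 ± 0.30).

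SFTPC itself marked the transfected gene on every array. On the probe set that stood for the gene, 1 of 5, the intensities were 173160.0, 261955 and 190960.0 on the WT arrays and 132058, 108963 and 124170.0 on the LQ arrays. The LQ arrays all lay below the WT arrays there, and the log2 change of -0.76 ± 0.21 missed the threshold (adjusted p over 32768 probe sets = 0.051). On a second probe set the intensities were 169587, 239917 and 178933 on the WT arrays and 129022, 107088 and 116128 on the LQ arrays, again without overlap, and there the change of -0.73 ± 0.17 passed the test (adjusted p = 0.033). Over all probe sets 6.81% were called and 3.72% were called lower. The other 3 probe sets gave changes of -0.71, -1.83 and -0.60, none of them called. The fall on the called probe set was lost after quantile normalization of the arrays (-0.17) and after centring each array on its median (-0.14). The names of all 5 probe sets mark them as able to bind more than 1 transcript, and their positions within SFTPC were not analysed here.

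Of the 14018 genes, 1318 were called (9.4%): 646 rose in LQ (4.61%) and 672 fell (4.79%). Without regard to the test, all 3 LQ arrays lay above all 3 WT arrays for 15.7% of genes and below them for 23.2%, and the median change over all genes was -0.09. The rises were mostly small, with a median of 1.81-fold; 435 of them were under 2-fold and 8 reached 4-fold. The falls had a median of 2.45-fold, and 101 of them reached 4-fold. Rises and falls lay at different brightness. With the genes in 5 equal groups by brightness, 10 rose and 132 fell in the dimmest group, and 298 rose and 45 fell in the brightest. The share that rose was 0.357% in the dimmest group, 3.17% in the middle one, 7.88% in the next-brightest and 10.6% in the brightest. The shares of all genes set beside the lists below do not allow for brightness. The median change was -0.68 in the dimmest group, -0.05 in the middle one and 0.13 in the brightest. After centring on the array medians every change moved up by 0.58, so no rise could turn into a fall. The calls became 4318 higher and 207 lower, whereas quantile normalization gave 312 higher and 281 lower. Of the 1318 calls, 490 were also made after quantile normalization and 839 after median centring.

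**Figure D1:**
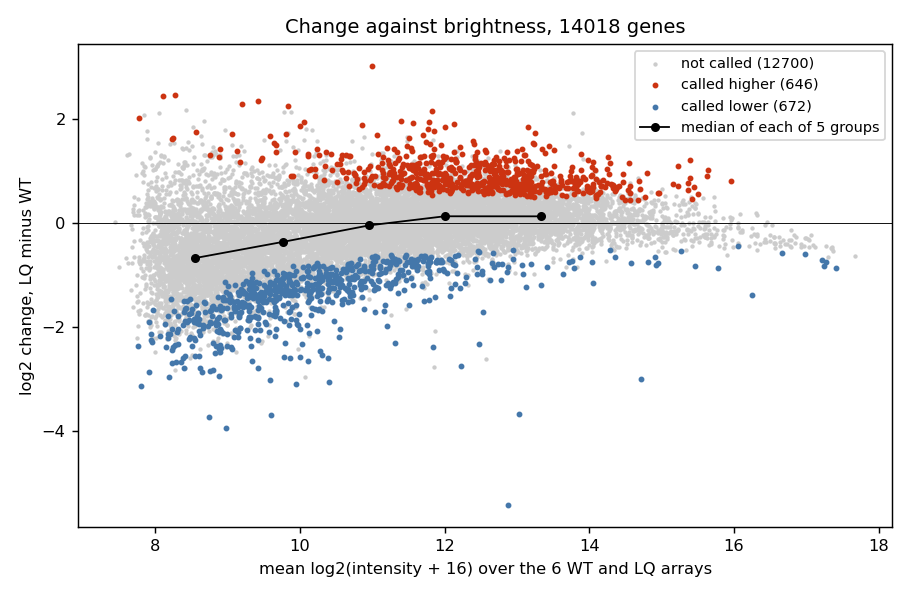
Each point is 1 of 14018 genes, with its mean log2(intensity + 16) over the 6 arrays on the horizontal axis and the log2 change, LQ minus WT, on the vertical axis; genes called higher (646) are red and genes called lower (672) blue. The black line joins the median change in each of 5 brightness groups, which runs from -0.68 to 0.13.

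These calls were close to the threshold: the smallest adjusted p was 0.0042, the median over called genes was 0.035, and 431 of 1318 (32.7%) lay between 0.04 and 0.05. Leaving out 1 of the 3 LQ arrays left 4, 35 or 5 called genes. Leaving out WT replicate 2 left 11 and leaving out WT replicate 3 left 32, whereas without WT replicate 1 there were 2910. WT replicate 1 was the WT array nearest the LQ level for most called genes: it was the highest WT array for 409 of the 646 genes that rose (63.3%, against 33.4% of all genes) and the lowest for 433 of the 672 that fell (64.4%, against 43.1%).

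ER chaperones and folding enzymes were among the genes that rose. Of 31 tested members, 7 rose (HSPA5, HSP90B1, DNAJB9, DNAJC3, SDF2L1, CRELD2 and P4HB) and 1 fell (CALR), against a background of 4.61% higher and 4.79% lower over all genes. The median over the 31 was 0.06, against -0.09 for all genes, and 23 of them were not called. HSPA5, the main HSP70 chaperone of the ER, had intensities of 40365, 32956 and 25687 on the WT arrays and 57613, 54507 and 53482 on the LQ arrays. The groups did not overlap, and the rise was 0.77 ± 0.17, or 1.7-fold (adjusted p = 0.028). HSP90B1 (GRP94), the ER HSP90, had intensities of 17157, 8468 and 10606 on the WT arrays and 26728, 21888 and 24914 on the LQ arrays. It rose 2.11-fold (1.08 ± 0.22, adjusted p = 0.023) with WT replicate 1 nearest the LQ arrays. A second, dimmer probe set of each of these genes was not called (0.13 for HSPA5 and -0.19 for HSP90B1). DNAJB9 (ERdj4), a cochaperone that works with HSPA5 and binds misfolded SP-C, had intensities of 3460.1, 2843 and 3717 on the WT arrays and 5999, 6832 and 7367 on the LQ arrays. Its 3 WT arrays lay close together, and it rose 2.02-fold (1.01 ± 0.22, adjusted p = 0.027). DNAJC10 (ERdj5), a reductase that also prepares SP-C for degradation, had intensities of 7783, 3744 and 4395 on the WT arrays and 8586, 9503 and 8989 on the LQ arrays. The LQ arrays lay above the WT arrays, 1 of them by a small margin, and the change of 0.84 ± 0.26 did not pass the test (adjusted p = 0.058). Of its other 4 tested probe sets, 1 was called higher without overlap (1.65 ± 0.30, adjusted p over probe sets = 0.022), and the rest gave 0.86, -0.36 and -1.38 and were not called.

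Smaller partners of these chaperones moved in the same range. CRELD2, an ER protein induced by unfolded protein, rose 1.89-fold, SDF2L1, a cochaperone of HSPA5, 1.92-fold, and DNAJC3 (p58IPK), which binds unfolded protein in the ER, 1.67-fold. P4HB, the protein disulfide isomerase, had intensities of 16936, 20146 and 23029 on the WT arrays and 33905, 34771 and 35872 on the LQ arrays. It rose 1.75-fold, while its other 2 tested probe sets gave -0.31 and -0.14 and were not called. CALR (calreticulin), a lectin chaperone of the calnexin cycle, went the other way, with intensities of 13982, 22120.5 and 18469 on the WT arrays and 10025, 10817 and 6919.8 on the LQ arrays. The LQ arrays all lay below the WT arrays, and the log2 change was -0.97 ± 0.22 (adjusted p = 0.029). Its other 2 tested probe sets overlapped between groups and were not called (-0.16 and -0.45). After quantile normalization HSPA5, HSP90B1, DNAJB9, P4HB and CALR still passed and SDF2L1, DNAJC3 and CRELD2 did not. After median centring CALR was the member of these 8 that no longer passed (-0.39).

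Genes of ER-associated degradation had a median of 0.24 over 30 tested members, 13 of which had all LQ arrays above all WT arrays (15.7% of all genes did) and 2 all below. 4 members rose (13.3%, against 4.61% of all genes) and 1 fell (3.33%, against 4.79%). HERPUD1 (HERP), a scaffold of the HRD1 ubiquitin ligase complex in the ER membrane, had intensities of 4638, 4634 and 3696 on the WT arrays and 9911, 10027 and 11094 on the LQ arrays. Its groups were far apart, and it rose 2.4-fold (1.26 ± 0.19, adjusted p = 0.015). SEL1L, the partner that holds HRD1 stable, had intensities of 6034, 4537 and 4737 on the WT arrays and 7514, 7233 and 7875 on the LQ arrays. It rose 1.49-fold (adjusted p = 0.043), with WT replicate 1 not far below the LQ arrays. EDEM3, which trims mannose from misfolded glycoproteins, had intensities of 4419, 2065 and 2886 on the WT arrays and 6376, 5481 and 6666 on the LQ arrays. It rose 2.06-fold and DERL1, a channel component, 1.7-fold. DERL3, a close relative of DERL1, fell by 1.77-fold (1400.0, 1800.2 and 1704 on the WT arrays and 844, 888 and 1013 on the LQ arrays). HERPUD1 alone of these 5 passed after quantile normalization, whereas after median centring DERL3 alone did not pass.

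The sensors and transcription factors of the unfolded protein response themselves gave 1 called gene of 16 tested, PPP1R15B (CReP), a subunit of the phosphatase that acts on EIF2S1, which rose 1.43-fold and was lost after quantile normalization. That 1 rise was 6.25% of the list, near the 4.61% of all genes. The median of the 16 was 0.01 and their mean -0.02. XBP1, the transcription factor that ERN1 activates by splicing, had intensities of 8332, 12554 and 13025 on the WT arrays and 9625, 9831 and 12352 on the LQ arrays. The groups overlapped (-0.07 ± 0.21, adjusted p = 0.84), and neither of its probe sets is known here to tell spliced from unspliced mRNA. ATF4, the factor made when EIF2AK3 slows translation, had intensities of 60479, 83679 and 79311 on the WT arrays and 66875, 64763 and 71014 on the LQ arrays, with a change of -0.13 ± 0.17 (adjusted p = 0.64). For both, the sign of the change turned after median centring (0.51 and 0.45) and neither passed there. DDIT3 (CHOP), the factor tied to cell death under ER stress, had intensities of 4639.5, 5218 and 5471 on the WT arrays and 6043, 5866 and 5506 on the LQ arrays. Its LQ arrays lay just above the WT arrays, by 0.19 ± 0.19 (adjusted p = 0.52). EIF2AK3 gave 0.64 ± 0.21 (adjusted p = 0.068) and MBTPS2, the protease that releases ATF6, 0.45 ± 0.14 (adjusted p = 0.056).

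Among 35 tested targets of ATF4 and CHOP, 2 rose and 0 fell, a share close to the 4.61% of all genes. ATF3, a stress-induced transcription factor, had intensities of 30349.7, 43961 and 38325 on the WT arrays and 69932, 68504 and 68679 on the LQ arrays. It rose 1.86-fold (0.89 ± 0.15, adjusted p = 0.016) without overlap, and it passed after quantile normalization too. CEBPG, a partner of ATF4 on DNA, rose 1.72-fold and was lost after that scaling. XPOT (0.54), which exports tRNA, and VLDLR (-0.80), a lipoprotein receptor, had adjusted p of 0.054 and 0.055 and were not called.

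**Figure D2:**
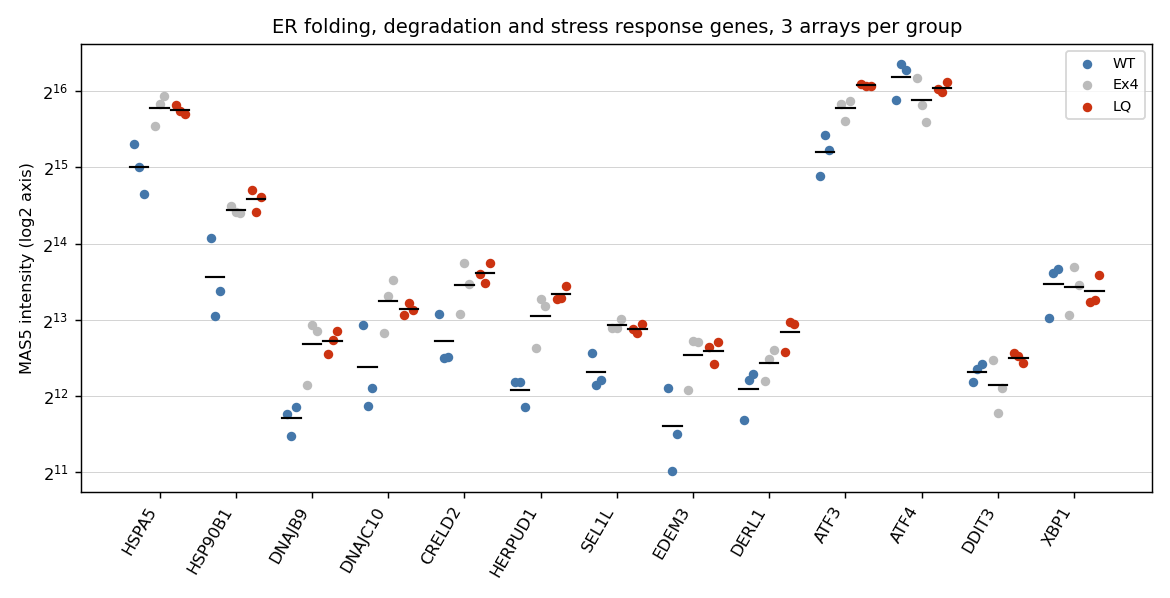
MAS5 intensity on a log2 axis for 13 ER folding, degradation and stress response genes. Points show the 3 WT (blue), 3 Ex4 (grey) and 3 LQ (red) arrays, and a black bar marks the arithmetic mean of each group's intensities. The LQ points of HSPA5, HSP90B1, DNAJB9, HERPUD1 and ATF3 all lie above the WT points, while those of ATF4 and XBP1 lie among them.

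The promoters of several of these genes hold the ER stress element, a sequence bound by ATF6 and XBP1 together with the factor NF-Y. It was searched on both strands of the RefSeq promoter windows (250 bases before to 50 after the start of a gene, assembly GRCh38.p14), which were matched by symbol for 11278 of the 14018 genes. The letters searched for the ER stress element were CCAAT, 9 bases of any kind and CCACG; for its second form, ERSE-II, they were ATTGG, 1 base of any kind and CCACG. The windows of the genes below are shown because each belongs to a chaperone, degradation or transcription factor gene described above that was named without regard to its rank and whose promoter holds either form. The capitals mark the whole match with its spacer, and 10 bases stand on each side. All are written 5′ to 3′ on the strand of the gene. HSPA5 lies on the minus strand (chr9:125241381-125241419), HERPUD1 on the plus strand (chr16:56932015-56932045, ERSE-II), and XBP1 on the minus strand (chr22:28800593-28800631). HSP90B1, on the plus strand, holds the element at chr12:103930206-103930244 and, in the opposite orientation, at chr12:103930311-103930349.
HSPA5: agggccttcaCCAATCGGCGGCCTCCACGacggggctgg
HERPUD1: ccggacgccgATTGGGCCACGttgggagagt
HSP90B1, upstream match: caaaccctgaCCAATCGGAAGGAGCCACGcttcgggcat
HSP90B1, downstream match: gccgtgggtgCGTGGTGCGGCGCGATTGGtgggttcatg
XBP1: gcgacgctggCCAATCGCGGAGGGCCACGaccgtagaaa

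The match began 66 bases before the start site in HSPA5, 117 before it in HERPUD1, 194 and 89 before it in HSP90B1, and 52 before it in XBP1. Over all 11278 windows, 14 held the ER stress element (0.124%) and 13 held ERSE-II (0.115%). Of the 541 windows of genes that rose, 4 held the element (0.739%) and 2 held ERSE-II. The 27 genes with either form had a median change of -0.0047, and 20 of them were not called. 6 of the 27 rose (HSPA5, HSP90B1, HERPUD1, CRELD2, SDF2L1 and SERP1, a stabiliser of membrane proteins in the ER), or 22.2%, against 4.76% of the 11251 genes with neither form. CALR, which also holds the element, fell, and XBP1 was not called. Another motif, the unfolded protein response element TGACGTGG, lay in 0.931% of all windows and in 8 of the 541 of genes that rose (1.48%). The ATF4 element, searched as TGATG, 1 base of any kind and AA, lay in 1.9% of all windows, in 1.66% of those of genes that rose and in 2.17% of those of genes that fell. The windows of DNAJB9, DNAJC10, SEL1L, DDIT3 and ATF4 held neither form of the ER stress element.

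Genes that carry proteins into the ER and out of it gave few calls, all of them rises. Both lists are bright, with a median WT log2 level of 13.36 and 12.86 against 10.995 over all genes. In the brightest of the 5 groups above, 10.6% of genes rose, 1.6% fell and the median change was 0.13. Of 38 tested genes of translocation, signal cleavage and N-glycosylation, SRP19, a protein of the signal recognition particle, rose 1.52-fold, and SEC11A, the catalytic subunit of signal peptidase, 1.35-fold. These rises were 5.26% of the 38, near the 4.61% of all genes, and the median of the 38 was 0.13. Of 47 genes of COPII, COPI and Golgi transport 5 rose (10.6%, against 4.61% of all genes) and 0 fell, with a median of 0.11: the coatomer subunits ARCN1 (1.58-fold) and COPA (1.51-fold), ARFGAP3 (2.32-fold), which acts on the ARF1 GTPase of COPI coats, the Golgi tether GOLGB1 (2.41-fold) and the cargo receptor TMED9 (1.5-fold). ARCN1 had intensities of 12289.8, 11698 and 10522 on the WT arrays and 19229.9, 18467 and 16671 on the LQ arrays, with no overlap. COPA, another subunit of the same coat, had intensities of 8684, 9758 and 9260.2 on the WT arrays and 14009, 13832 and 14094 on the LQ arrays. None of these 7 genes passed after quantile normalization, and all 7 passed after median centring. Of 19 tested genes tied to the handling of SP-C, NEDD4L (NEDD4-2), a ubiquitin ligase that takes part in the sorting of proSP-C, rose 1.54-fold, and CTSH, a protease that cleaves proSP-C, fell by 1.74-fold. Both were lost after quantile normalization, and CTSH also after median centring. Each was 5.26% of the 19, near the 4.61% of all genes that rose and the 4.79% that fell.

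Of 29 tested proteasome subunits 3 rose (10.3%, against 4.61% of all genes) and 0 fell, with a median of 0.10. This list is bright too, with a median WT log2 level of 14.08. In the brightest of the 5 groups 10.6% of genes rose, with a median change of 0.13, so the list stood near genes of its brightness. SEM1, a small subunit of the regulatory particle, had intensities of 5832, 4467 and 4728 on the WT arrays and 10949, 11916 and 11854 on the LQ arrays. It rose 2.32-fold (adjusted p = 0.016), and PSMC3, an ATPase of the same particle, 1.65-fold and PSMA4, an alpha subunit of the core, 1.41-fold. SEM1 alone of the 3 passed after quantile normalization. Cytosolic chaperones and heat shock genes gave 1 rise and 1 fall of 26 with a median of 0.05. Each was 3.85% of the list, below the 4.61% of all genes that rose and the 4.79% that fell. HSPB8, a small heat shock protein that works in selective autophagy, rose 1.78-fold, and HSPD1, the mitochondrial chaperonin, fell by 1.36-fold, a direction that turned after median centring (0.14). Neither passed after quantile normalization. HSPA6, the most strictly stress-induced HSP70, had intensities of 2087, 2185 and 1145 on the WT arrays and 1250.2, 744 and 703 on the LQ arrays and was not called (-0.99 ± 0.36, adjusted p = 0.088).

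Of 40 tested genes of autophagy and the lysosome 5 rose (12.5%, against 4.61% of all genes) and 0 fell, with a median of 0.09. SQSTM1 (p62), the receptor that brings ubiquitinated protein to autophagosomes, had intensities of 9762, 12213 and 12093 on the WT arrays and 20397, 18458 and 18371 on the LQ arrays. The LQ arrays stood together well above the WT arrays, and the rise was 1.69-fold (0.75 ± 0.16, adjusted p = 0.027). Its other 4 tested probe sets, all much dimmer, gave changes of -1.24 to 0.13, none of them called, and with the mean of all 5 in place of the brightest the change of SQSTM1 became -0.30. MCOLN1, a calcium channel of the lysosome, had intensities of 296, 999.5 and 220.2 on the WT arrays and 2087, 2157 and 1729 on the LQ arrays. WT replicates 1 and 3 lay below their array medians. MCOLN1 rose 4.74-fold, and ATP6V1B2, a subunit of the pump that acidifies lysosomes, 1.99-fold. ATG12, part of the conjugate that extends autophagosomes, rose 1.67-fold and NPC1, which exports cholesterol from lysosomes, 1.48-fold; neither passed after quantile normalization.

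Genes of apoptosis and targets of p53 gave 7 rises (20%, against 4.61% of all genes) and 1 fall (2.86%, against 4.79%) of 35 tested, with a median of 0.18. MCL1, an inhibitor of apoptosis with a short-lived protein, had intensities of 12234, 9340.2 and 10510.4 on the WT arrays and 23127, 25697 and 24955 on the LQ arrays. It rose 2.31-fold without overlap (1.21 ± 0.16, adjusted p = 0.012). PMAIP1 (NOXA), which opposes MCL1, had intensities of 34233, 33125 and 34201 on the WT arrays and 56354, 48774 and 53205 on the LQ arrays, and it rose 1.56-fold (adjusted p = 0.022). GADD45A, induced by DNA damage and other stress, had intensities of 23204, 27112 and 28507 on the WT arrays and 61256, 50668 and 57531 on the LQ arrays. It rose 2.15-fold, and its relative GADD45B 1.61-fold. BAK1, which opens the outer mitochondrial membrane in apoptosis, rose 2.23-fold from a lower level (954, 1866 and 1835 on the WT arrays and 3449.9, 3541 and 3019 on the LQ arrays). BIRC2 (cIAP1), an inhibitor of death receptor signalling, rose 2.02-fold and CYCS, cytochrome c, 1.47-fold. CASP9, the caspase that cytochrome c activates, fell by 1.57-fold. The called members thus held both promoters and inhibitors of apoptosis. GADD45B and CASP9 did not pass after quantile normalization, and CASP9 also not after median centring.

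Inflammatory and NF-kB genes gave 3 rises (13%, against 4.61% of all genes) and 0 falls of 23. CXCL8, the neutrophil chemokine interleukin 8, had intensities of 1057, 1612 and 2138 on the WT arrays and 6838, 4537 and 6466 on the LQ arrays. It rose 3.77-fold (1.92 ± 0.26, adjusted p = 0.012) with no overlap and kept its call after both other scalings. TNFAIP3 (A20), a feedback inhibitor of NF-kB, rose 2.36-fold (2085, 3161 and 2751 on the WT arrays and 6836, 5504 and 6378 on the LQ arrays). CCL5, a chemokine that draws T cells, rose 2.69-fold and was lost after quantile normalization. PTGS2, the inducible cyclooxygenase, gave 1.07 ± 0.32 (adjusted p = 0.055). The median of the list was 0.11, and 20 of the 23 were not called. The median was -0.06 without WT replicate 1, 0.21 without WT replicate 3 and 0.04 without LQ replicate 3.

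Interferon-stimulated genes had the highest median of the lists, 1.12, and all 37 tested members had a positive change, whereas 43.6% of all genes did. 3 of the 37 were called, all higher (8.11%, against 4.61% of all genes): DDX60, an antiviral helicase, TRIM22, an antiviral ubiquitin ligase, and IFIH1 (MDA5), a sensor of double-stranded RNA. DDX60 had intensities of 865, 698 and 1442 on the WT arrays and 3324, 2526 and 5349 on the LQ arrays, and it rose 3.68-fold (1.88 ± 0.33, adjusted p = 0.017). TRIM22 had intensities of 77.1, 274 and 1020.4 on the WT arrays and 1669, 917 and 2285 on the LQ arrays, and it rose 5.06-fold, from values below the array median on WT replicates 1 and 2. IFIH1 had intensities of 1087, 1292 and 3111 on the WT arrays and 5132, 2979 and 8652 on the LQ arrays, and it rose 3.09-fold. In TRIM22 and IFIH1 WT replicate 3 lay above LQ replicate 2, so the groups overlapped. Both lost their calls after quantile normalization, and DDX60 did not. IFIT2, an inhibitor of viral translation, had intensities of 2193, 6124 and 22721 on the WT arrays and 30512, 18338 and 44528 on the LQ arrays, where WT replicate 3 lay within the range of the LQ arrays (2.11 ± 0.62, adjusted p = 0.052).

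The WT arrays themselves differed in these genes. The mean log2 level over the 37 was 9.78, 10.57 and 11.98 on WT replicates 1, 2 and 3, and 11.63, 11.38 and 12.56 on the LQ arrays. WT replicate 3 was thus above LQ replicates 1 and 2. It was the highest WT array for 35 of the 37 genes and lay above the lowest LQ array for 32 of them, while WT replicates 1 and 2 were both below all LQ arrays for 30. The median change of the list was 1.80 without WT replicate 3, 0.51 without WT replicate 1 and 0.77 without LQ replicate 3. It was 1.11 after quantile normalization.

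**Figure D3:**
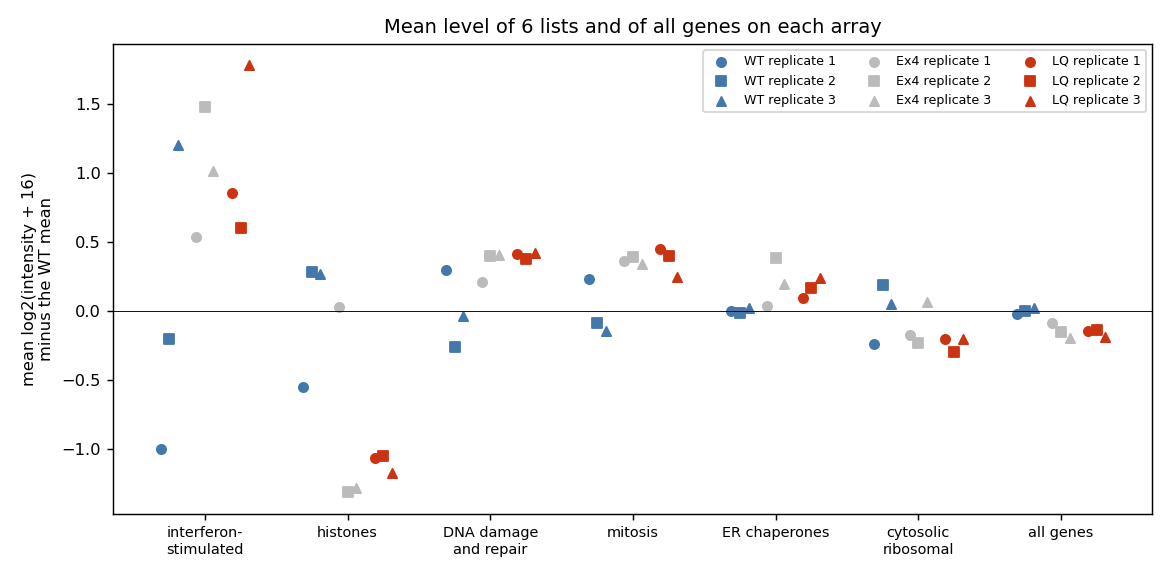
Mean log2(intensity + 16) over the tested members of 6 gene lists and over all genes, less the mean of the 3 WT arrays, with 1 point for each of the 9 arrays (colour for the group, shape for the replicate). The WT arrays span more than the distance between group means in the interferon-stimulated genes, and the histones lie low on all LQ arrays, on Ex4 replicates 2 and 3 and, in part, on WT replicate 1.

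Histone genes held the 4 largest falls among called genes without overlap and above the array median on all 6 arrays. The mRNA of replication-dependent histones normally ends in a stem-loop in place of a poly(A) tail. Of 57 genes in the list (with the factors that process these mRNAs), 33 were tested, 9 were removed by the filter and 15 were matched by no probe set of a single symbol. 10 of the 33 fell (30.3%, against 4.79% of all genes) and 3 rose (9.09%, against 4.61%). The median was -0.68 (-0.24 after quantile normalization and -0.09 after median centring). Without WT replicate 2 the median was -0.29 and without WT replicate 3 it was -0.45. H1-4, a linker histone, had intensities of 27635, 75258 and 58133 on the WT arrays and 1454, 986 and 1029 on the LQ arrays. Every LQ array was more than an order of magnitude below every WT array, and the fall was 42.9-fold (-5.42 ± 1.27, adjusted p = 0.03). H2BC6, a histone H2B gene, had intensities of 13739.7, 43055 and 44919 on the WT arrays and 2447, 2366 and 2128 on the LQ arrays and fell by 12.8-fold. H2BC12L and H2BC9, also of the H2B family, fell by 7.97-fold and 6.72-fold. H3C11 and H3C7, both H3 genes, fell too (1634, 4712 and 2763 on the WT arrays for H3C11 and 789, 2943 and 3279.6 for H3C7), but all their LQ values, 65.6 to 274, were under the median of their array and give no firm size. H2B genes are near-identical in sequence, and the probe set of H2BC6 is named as one that can bind relatives, so these values are not fully independent of each other. The array median and the GAPDH 3′ to 5′ ratio given above also separated the groups while the ACTB ratio did not, and their part in these falls was not tested.

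Not all histone genes went down. H2AC6, one whose transcripts can also be polyadenylated, had intensities of 3093, 3283 and 4493 on the WT arrays and 8007, 8122 and 8959 on the LQ arrays and rose 2.33-fold (adjusted p = 0.015). H4C8 rose 1.63-fold, and SLBP, the protein that binds the histone stem-loop, 1.46-fold; neither passed after quantile normalization. The levels of the falling genes varied within the groups that were not LQ. H1-4 had intensities of 35539, 328 and 459 on the Ex4 arrays, with replicate 1 at the level of the WT arrays and the others below the LQ arrays. WT replicate 1 was the lowest WT array for H1-4, H2BC6, H2BC12L and H2BC9. H1-4, H2BC6, H2BC9, H3C7, H3C11, H2BC5 and H2AC6 passed after quantile normalization. H2BC5 and H2BC14 did not pass after median centring.

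Genes of the cell cycle moved upward in part. The lists of replication and mitosis are bright, with a median WT log2 level of 12.79 and 12.56 against 10.995 over all genes. In the next-brightest and the brightest of the 5 groups, 7.88% and 10.6% of genes rose. Of 50 genes of DNA replication and nucleotide synthesis 8 rose (16%, against 4.61% of all genes) and 0 fell. Their median was 0.20, and 18 members had all LQ arrays above all WT arrays (15.7% of all genes). CDC6, which loads the replicative helicase, had intensities of 5372, 5235 and 4462 on the WT arrays and 9997, 10358 and 9105 on the LQ arrays and rose 1.96-fold (adjusted p = 0.016). The helicase subunits MCM3, MCM4 and MCM5 rose 1.76-fold, 1.55-fold and 1.66-fold. MCM10, which helps to start replication, rose 1.71-fold, ORC1 of the origin recognition complex 1.91-fold, RFC1, the large clamp loader subunit, 1.69-fold, and CCND3, a D-type cyclin, 1.74-fold. CDC6, MCM3 and ORC1 passed after quantile normalization. Of 40 mitosis genes 5 rose (12.5%, against 4.61% of all genes) and 0 fell, with a median of 0.21. AURKA, a kinase of the spindle poles, had intensities of 9123, 10504 and 10431 on the WT arrays and 17918, 18388 and 15953 on the LQ arrays, and it rose 1.74-fold (0.80 ± 0.15, adjusted p = 0.02). CDK1, the mitotic kinase, rose 2.69-fold, MKI67, the proliferation marker, 2.61-fold, HMMR, a spindle protein, 2.03-fold and NDC80, of the kinetochore, 1.93-fold. For CDK1, WT replicate 1 (13054.5) lay near LQ replicate 3 (14100), and its other tested probe sets gave 0.55, 0.12 and -0.95, none of them called. AURKA alone of these 5 passed after quantile normalization.

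Genes of DNA damage signalling and repair had a median of 0.26 over 33 members, with 6 rises (18.2%, against 4.61% of all genes) and 0 falls. PARG, which removes poly(ADP-ribose) from proteins, had intensities of 2615, 1251 and 1530.0 on the WT arrays and 7741, 7108 and 8156 on the LQ arrays. It had the largest rise among called genes whose groups did not overlap and that lay above the array median on all 6 arrays, 4.44-fold (2.15 ± 0.32, adjusted p = 0.015). RIF1, which guides repair of double-strand breaks and the timing of replication, had intensities of 4004, 912 and 1528 on the WT arrays and 8599, 5586 and 6843 on the LQ arrays, with WT replicate 1 well above the other WT arrays. It rose 3.86-fold. WRN, the helicase of Werner syndrome, rose 2.46-fold, MRE11, a nuclease that senses breaks, 2.15-fold, MSH6 of mismatch repair 1.64-fold and MDC1, a damage scaffold, 1.54-fold. PARG, RIF1 and WRN passed after quantile normalization.

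Of 26 immediate early genes, IER2 rose 1.66-fold and MCL1, named above, was the other called member, with 10 of 26 above all WT arrays (15.7% of all genes). The called members were 7.69% of the list, against 4.61% of all genes that rose. CCN1 (0.68 ± 0.22) and IER3 (0.59 ± 0.20) were not called. Of 28 antioxidant genes and metallothioneins NFE2L2 (NRF2), the transcription factor of the antioxidant response, rose 1.72-fold (8620.2, 7247 and 7969.5 on the WT arrays and 15814, 13058 and 12269.8 on the LQ arrays), and MT1E, a metallothionein, fell by 2.15-fold. The 1 rise and the 1 fall were each 3.57% of the list, below the 4.61% and 4.79% of all genes. The median of the 28 was -0.09, the same as that of all genes. MT1E passed after neither other scaling.

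Of 33 genes of glycolysis and the hypoxia response 0 rose and 4 fell (12.1%, against 4.79% of all genes): ALDOC, an aldolase, by 2.46-fold, CA12, a carbonic anhydrase, by 2.27-fold, SLC2A1, the glucose transporter GLUT1, by 1.98-fold and EPAS1 (HIF-2 alpha) by 1.69-fold. SLC2A1 had intensities of 3846, 5559.8 and 5682 on the WT arrays and 2482, 2668 and 2328 on the LQ arrays. None of the 4 passed after quantile normalization or after median centring. The list's median was -0.02. Of 25 genes of cholesterol and fatty acid synthesis 0 were called by limma, against 7 with an unadjusted p under 0.05; the smallest adjusted p was 0.082, for ACACA, the first enzyme of fatty acid synthesis (-0.46 ± 0.16). Of 43 nuclear-encoded respiratory chain subunits 3 rose (6.98%, against 4.61% of all genes): COX6C (1.66-fold), NDUFA5 (1.83-fold) and ATP5PB (1.38-fold). ATP5PB alone of the 3 passed after quantile normalization.

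Cytosolic ribosomal proteins, among the brightest genes on the arrays, gave 1 call of 35, a rise (2.86%, against 4.61% of all genes). Of these, 4 had a positive change and 17 had all LQ arrays below all WT arrays (23.2% of all genes), with a median of -0.30 against -0.09 over all genes. None of the 17 was called. After quantile normalization the median was 0.02, and after median centring 0.28, so the direction rested on the scaling. RPL3, a protein of the large subunit, was the 1 called member and rose 2.02-fold (30764, 36143 and 42491 on the WT arrays and 70428, 69243 and 79327 on the LQ arrays). It passed after both other scalings. Translation initiation factors gave 1 fall of 38, EIF3I (by 1.7-fold), which was lost under both other scalings. It was 2.63% of the list, below the 4.79% of all genes that fell. EIF2S2, a subunit of the factor that EIF2AK3 acts on, was not called (0.40 ± 0.14).

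Splicing factors and hnRNPs had a median of 0.25 over 47 members, 5 of which rose: ESRP1, a splicing factor of epithelial cells, 5.46-fold from WT values all below the array median, LUC7L3 2.5-fold, CLK4, a kinase of SR proteins, 2.23-fold, PRPF19, of the activated spliceosome, 1.71-fold and SF3A1, of the U2 particle, 1.43-fold. The 5 rises were 10.6% of the list, against 4.61% of all genes. The list is bright, with a median WT log2 level of 13.92, and 10.6% of genes in the brightest of the 5 groups rose as well. 18 of the 47 had all LQ arrays above all WT arrays (15.7% of all genes). ESRP1 and CLK4 passed after quantile normalization.

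**Figure D4:**
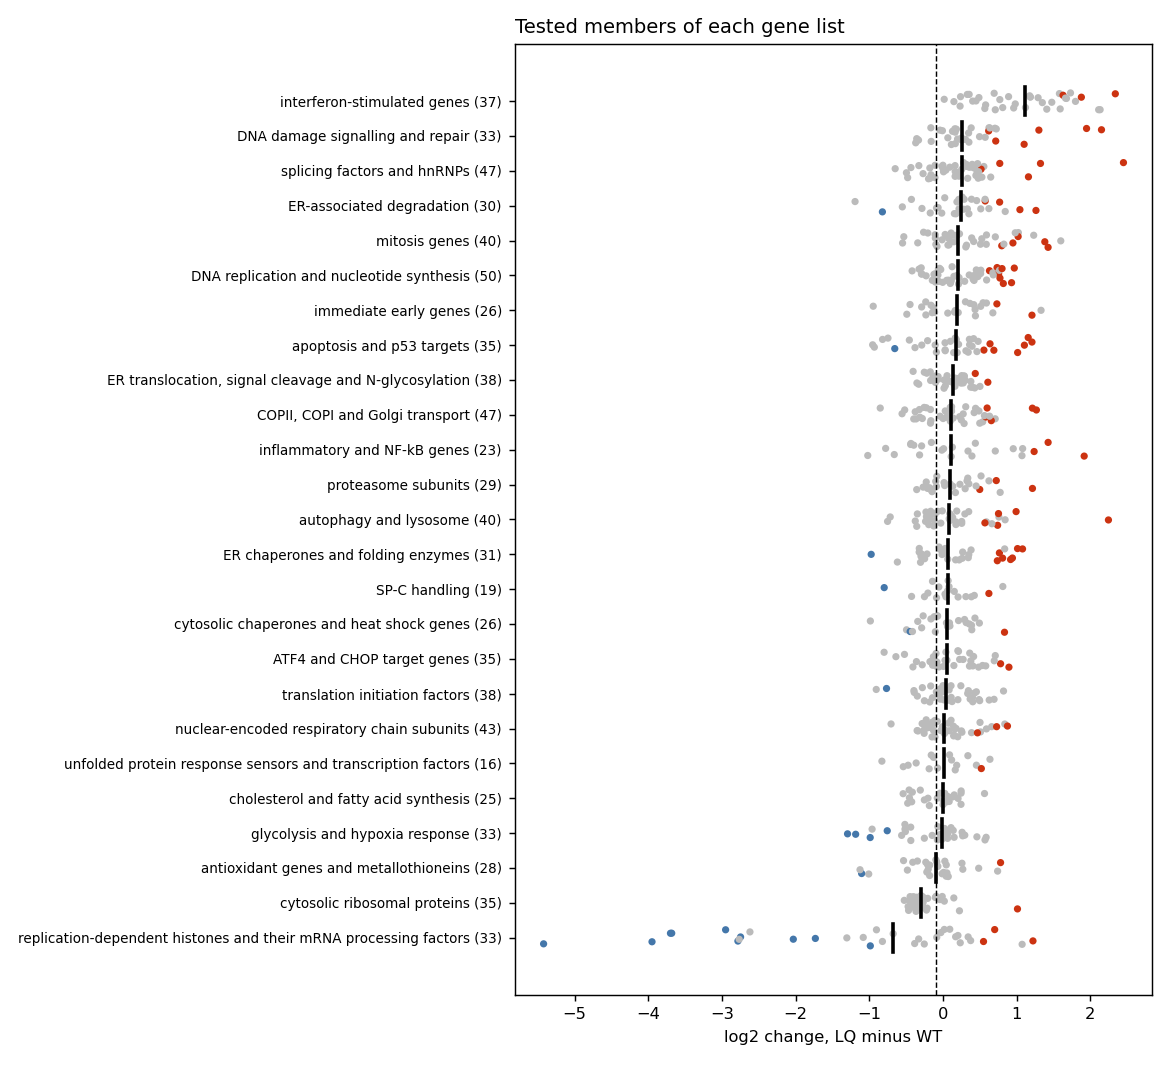
Log2 change, LQ minus WT, of every tested member of 25 gene lists (number of members in parentheses), with called members red (higher) or blue (lower), others grey, a black bar at each list's median and a dashed line at the median of all genes (-0.09). Medians run from 1.12 for interferon-stimulated genes to -0.68 for the histones, and most lists lie near the dashed line.

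After quantile normalization several small list medians changed sign: ER chaperones (-0.01), translocation, signal cleavage and N-glycosylation (-0.0026), proteasome subunits (-0.04), autophagy and lysosome (-0.02), cholesterol and fatty acid synthesis (-0.07), respiratory chain (-0.04) and translation initiation (-0.03), while that of the ribosomal proteins turned as given above. Without WT replicate 1 the medians of autophagy and lysosome (-0.04), cytosolic chaperones (-0.03), respiratory chain (-0.11) and translation initiation (-0.04) also lay below 0, and without WT replicate 2 that of glycolysis and hypoxia lay above it (0.09). The medians of interferon-stimulated genes (1.11), DNA damage and repair (0.21), splicing factors (0.17) and apoptosis (0.19) stayed above 0 after quantile normalization. Others that did so included immediate early genes (0.26), inflammatory and NF-kB genes (0.22), ER-associated degradation (0.10) and mitosis genes (0.08). Under median centring every change moved up by 0.58, so a median above 0 could not turn there. Leaving out 1 array at a time ended most single calls: of the 90 called genes that the naming rule gave (listed members named beyond it are not among them), 1 to 9 kept the call without 1 of the LQ arrays, WT replicate 2 or WT replicate 3. All 90 kept their sign. Where groups do not overlap, as in 641 of the 646 rises and 671 of the 672 falls, leaving out 1 array cannot turn it.

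The largest rises were taken among the 613 called genes whose groups did not overlap and that lay above the array median on all 6 arrays. After PARG came HECTD2, a ubiquitin ligase, at 3.9-fold (2314, 899.9 and 1195 on the WT arrays and 5869, 5100.2 and 5057 on the LQ arrays). RIF1 and CXCL8 followed. UBR3, a ubiquitin ligase of the N-degron family, rose 3.76-fold (3567, 1405 and 2431 on the WT arrays and 7924, 8499 and 9769 on the LQ arrays). DDX60 was next, then RECQL, a DNA helicase, at 3.58-fold. TXNDC16, an ER protein with thioredoxin domains, had intensities of 2765, 1486 and 1566 on the WT arrays and 5703, 6544 and 7438 on the LQ arrays. It rose 3.48-fold (1.80 ± 0.26, adjusted p = 0.012). DHRS2, a short-chain dehydrogenase, had intensities of 1908, 2076 and 2022 on the WT arrays and 7260.0, 7126 and 6118 on the LQ arrays. The 3 WT arrays were close together, and the rise of 3.39-fold had the smallest adjusted p of the named genes (0.0042). SF1, which recognises the branch point of introns, rose 3.31-fold (6011, 4986 and 5043 on the WT arrays and 18225, 18229 and 16596 on the LQ arrays), TNKS2, a tankyrase that makes poly(ADP-ribose), 3.25-fold and TAF1A, of RNA polymerase I initiation, 3.22-fold. Further probe sets of SF1 (-0.86) and HECTD2 (-0.10) did not move the same way. All 12 kept their calls after quantile normalization and after median centring.

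The largest falls were taken by the same rule from 434 genes. H1-4, H2BC6, H2BC12L and H2BC9 led them. SUFU, an inhibitor of Hedgehog signalling, had intensities of 1894, 3606 and 3049 on the WT arrays and 374, 568 and 358 on the LQ arrays. It fell by 6.29-fold (-2.65 ± 0.47, adjusted p = 0.017), whereas its other probe sets gave 0.31 and -0.36. ANKRD18B, an ankyrin repeat gene, fell by 5.83-fold (2733, 3086 and 3336 on the WT arrays and 564, 581 and 401 on the LQ arrays). SLC7A8, a transporter of neutral amino acids, fell by 5.54-fold, with 0.60 and -0.67 on its other probe sets. POLR2J4, a pseudogene of an RNA polymerase II subunit, fell by 5.24-fold and may share signal with its relatives. TSIX, a non-coding RNA antisense to XIST, fell by 5.03-fold, GNAO1, a G protein alpha subunit, by 4.98-fold, DCAKD, a kinase-like protein, by 4.58-fold and GRASLND, a long non-coding RNA, by 4.35-fold. A further probe set of DCAKD gave 0.19. For ANKRD18B the Ex4 arrays read 3204, 454 and 668, and for SUFU 1904, 480.3 and 479.5: Ex4 replicate 1 lay at or near the WT range, and replicates 2 and 3 near the LQ arrays. These 12 falls also kept their calls after both other scalings.

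**Figure D5:**
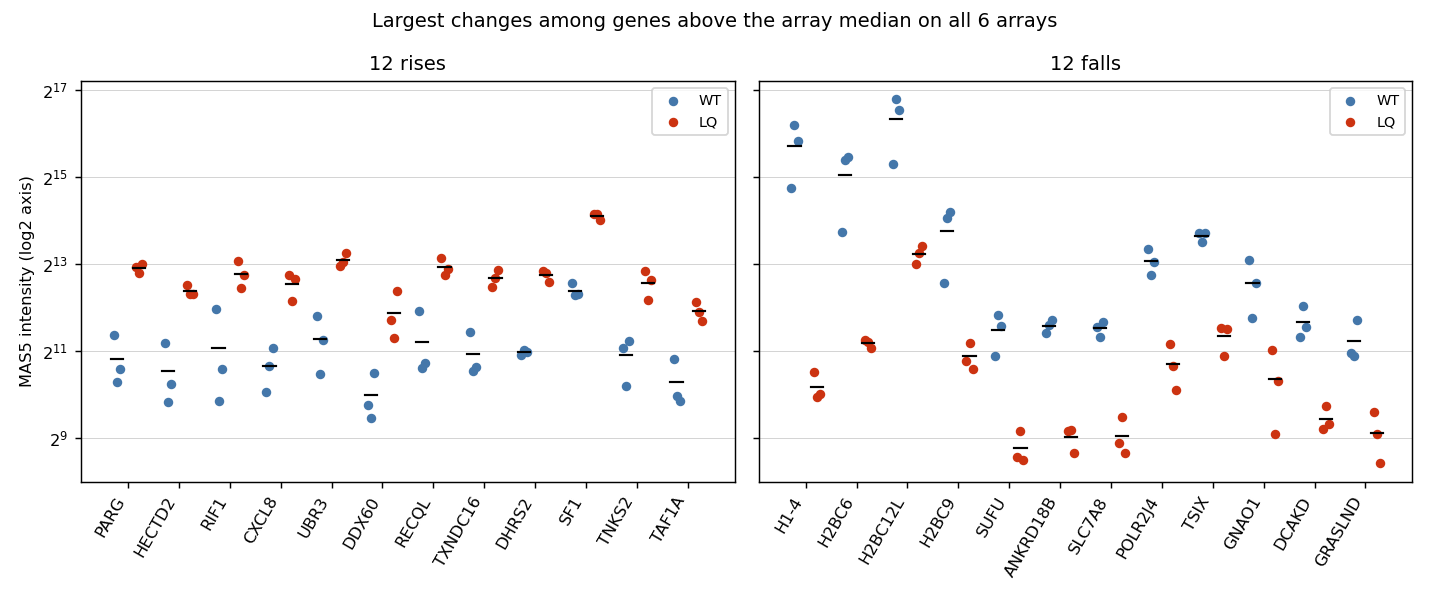
MAS5 intensity on a log2 axis on each WT (blue) and LQ (red) array for the 12 largest rises (left) and 12 largest falls (right). A black bar marks the arithmetic mean of each group's intensities. The groups do not overlap in any of the 24 genes, as the rule required, and the falls reach 42.9-fold for H1-4 while the rises end at 4.44-fold for PARG.

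More than 1 probe set was tested for 720 of the 1318 called genes. All probe sets had the same sign for 434 of the 720, another was called the same way for 147, and another was called the other way for 10. Of the 434 genes that rose among them, 240 had all probe sets of the same sign, as had 194 of the 286 that fell.

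The responses to both mutant forms were set against each other directly. In LQ against Ex4 limma called 0 of the 14018 genes, with 612 (4.37%) at an unadjusted p under 0.05, and 2 of the 32768 probe sets (0.0061%), both of SFTPC. HSPA5 differed by -0.02 ± 0.17 (LQ minus Ex4), DNAJB9 by 0.07 ± 0.22, HERPUD1 by 0.31 ± 0.19 and H1-4 by -0.64 ± 1.27. SQSTM1 had intensities of 9984, 11874 and 8476 on the Ex4 arrays, all below those of the LQ arrays given above, and differed by 0.93 ± 0.16. MCOLN1 differed by 1.03 ± 0.52. That these differences missed the threshold does not show that the mutants act alike. LQ and Ex4 were each compared with the same 3 WT arrays, so what they share against WT is not independent.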

How the data were processed

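Biotin-labelled total RNA from HEK293 cells was hybridised to Affymetrix arrays with 54675 probe sets, 62 of them controls. The deposited values are linear intensities made by the authors with MAS5, per the submitters' processing notes; its version and settings are not given in the sources used here. This method scales each array to a common trimmed mean, so it does not remove differences in the distribution of values, and no detection calls were analysed here. Gene symbols came from the platform annotation, updated through the RefSeq gene table: 41091 probe sets had 1 symbol, 1801 several and 11721 none, and 54 kept the platform's symbol. The columns used were 9, and none was left out.

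From the deposited intensities log2(value + 16) was computed. Probe sets under percentile 40 of the mean log2 value were left out (32768 remained). limma 3.58.1 in R 4.3.3 was fitted to all 9 arrays with 3 groups and no block, with a trended prior (eBayes), once on probe sets and once on 14018 genes, each represented by its probe set of highest mean. Benjamini-Hochberg adjustment ran over all features of each fit, at a threshold of 0.05. The precision is limited by 3 arrays per group. The script was tested on simulated data before use. Of 32768 simulated probe sets, 100 were changed 2-fold and 100 were changed 4-fold, with independent noise on each array. There it called 11% of the probe sets changed 2-fold and 68% of those changed 4-fold, with 0 false calls. A gene that was not called may therefore still have changed. The simulation held no shift shared by a whole array, such as the differing medians of the real arrays. Its 0 false calls therefore say nothing about calls that such shifts may cause, and the shares recovered may differ in the real data.

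Named genes were SFTPC and 9 genes of the ER stress response, the 12 largest rises and falls among called genes without overlap and above the array median on all 6 arrays, and the 4 members with the smallest p of each list; other called members of a list are named to complete its count, and CLDN5, PAX2, PTPRC and CDH5 from the marker lists were named after their values were seen. The members and lists were chosen with earlier results of these data known. Other settings tried were a pseudocount of 1 or 64, arrays made alike by quantiles or centred on their medians, percentile 60 or no filter, an untrended prior, a fit on the 6 arrays alone, a block for the replicate number, weights for arrays, averaged probe sets per gene, and the omission of each array in turn. Promoter windows were read from RefSeq (GRCh38.p14) with Python 3.11.15.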

Additional observations from a re-analysis of the deposited data

Results flagged for a closer look

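On a pair of SFTPC probe sets the mutant forms differed from each other. On one, LQ exceeded Ex4 by 2.39 on the log2 scale (limma, adjusted p over 32768 probe sets = 0.0002), with intensities of 129022, 107088 and 116128 on the LQ arrays and 24666, 23779 and 19159.6 on the Ex4 arrays. On the other, LQ exceeded Ex4 by 9.77 (adjusted p = 0.00082), with 126185, 108292 and 112695 on the LQ arrays and 914, 39.1 and 28.7 on the Ex4 arrays. The groups did not overlap on either. The other 3 SFTPC probe sets gave LQ minus Ex4 of -0.10, -1.01 and -0.15 and were not called. The Ex4 construct lacks exon 4 by its label, and whether the pair of probe sets lies in that exon was not tested.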

How the results depend on the processing

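The calls of LQ against WT number 1318 genes and 2231 probe sets. Quantile normalization gave 593 and 1154, median centring 4525 and 8452, no variance trend 455 and 442, and array weights 4560 and 8580. Without the Ex4 arrays there were 4035 probe sets and 1893 genes. Leaving out 1 array gave 4 to 2910 genes and 8 to 4993 probe sets. Of the 672 genes that fell, 435 lay above the array median on all 6 arrays, and 95 had all LQ arrays below it, where MAS5 values are least certain. The cause of these shifts was not tested.

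With the replicate number as a block (replicate block) 1338 genes and 2215 probe sets were called, and 1129 of the 1318 genes were shared. Same-numbered WT and LQ arrays deviated together at r = 0.173, 0.104 and 0.0739, and each of these correlated best with its own number. Same-numbered WT and Ex4 arrays gave -0.071, 0.010 and -0.083, and Ex4 and LQ arrays 0.19, -0.012 and 0.12. The labels do not say whether a number marks a shared batch, so whether the arrays were paired is not settled here.

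Signs turned for single genes. After median centring the changes were ATF4 0.45, XBP1 0.51, MBTPS1 0.043, EMC10 0.16, HSPD1 0.14, ACACA 0.13, ACLY 0.17, DHCR7 0.16, INSIG1 0.12, RPL37 0.18, RPS15 0.12, RPS24 0.18, SFTPB 0.32 and ETV5 0.21. After quantile normalization ATF4 gave 0.063. With probe sets averaged per gene they were EMC1 -0.027, SQSTM1 -0.30, RPL37 0.15, ATP5PB -0.18 and EIF2S2 -0.11. For XBP1 they ran from -0.28 without WT replicate 1 to 0.042 without WT replicate 3. Of the 90 called genes that the naming rule gave, 51 kept the call after quantile normalization, 80 after median centring, 28 with no variance trend and 55 with averaged probe sets.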

Other observations

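Called in each of the 9 fits that left out 1 array were 3 genes, chosen here after their values were seen. RCAN1, an inhibitor of calcineurin, had intensities of 6388, 6697 and 7100.1 on the WT arrays and 15414, 20531 and 16008 on the LQ arrays, a rise of 2.55-fold (1.35 ± 0.16, limma, adjusted p = 0.006). RRP12, a factor of ribosome assembly, had intensities of 3028, 2992 and 3332 on the WT arrays and 8565, 9334 and 9975 on the LQ arrays, a rise of 2.97-fold (1.57 ± 0.17, adjusted p = 0.0042). DHRS2, described above, was the other. In each, the 3 WT arrays lay close together, and the Ex4 arrays lay above them: 11740.2, 14648 and 12148 for RCAN1, 7125, 6229 and 5048 for RRP12 and 5512, 4188 and 3506 for DHRS2.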
